A study of Mus musculus with 24 samples.

Results

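H3K4me3 in the cerebral cortex of Rosa H2B-FLAG mice was compared between tandem ChIP-Seq (tChIP-Seq), in which chromatin carrying the tagged histone was isolated with anti-FLAG antibody before the anti-H3K4me3 step, and single ChIP-Seq with the anti-H3K4me3 antibody alone. The comparison comprised 6 of the 24 libraries of the series, 3 tChIP-Seq and 3 single ChIP-Seq libraries chosen by their antibody and genotype labels, and counts over all 17993 regions of the shared region list were used. Both groups came from adult C57BL/6 mice of the genotype Rosa CAG-H2B-FLAG, in which FLAG-tagged H2B is driven by the CAG promoter from the Rosa26 locus after germline recombination with Vasa-Cre. The tag is thus carried by almost all cells, and the groups differ in the FLAG step and in no label of genotype, strain or tissue. Each lysate was prepared from the pooled cortices of a pair of animals, and nothing states whether the equally numbered tChIP-Seq and single ChIP-Seq libraries share a lysate. The 6 corresponding libraries of the Camk2a H2B-FLAG line (Rosa26 CAG-floxed-pA-H2B-FLAG/ CaMKCreERT2, also C57BL/6), in which tamoxifen-activated Cre places the tag in Camk2a-expressing excitatory neurons, were used for comparison. The other 12 libraries, input and FLAG ChIP, were not analysed here.

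Trimethylation of lysine 4 of histone H3 is found around the transcription start sites (TSSs) of active genes, usually on CpG-rich promoters. Broad stretches of it often lie on genes that define a cell type, and promoters of silent developmental regulators can carry a low level of it. In cortex, the mark measured in bulk is a sum over excitatory and inhibitory neurons, astrocytes, oligodendrocytes, microglia and the cells of vessels and meninges. A change for the genes of a cell type is therefore a change in the recovered share of this sum, and is not read as a change of the mark in its cells. For this comparison the paper names as possible sources longer DNA after the FLAG step, an effect of the tag on the H3K4me3 step, and uneven placement of the tagged H2B. None of these was tested here.

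The single ChIP-Seq libraries held 6316125 to 8644574 counts and the tChIP-Seq libraries 1457261 to 1828371, so the tChIP-Seq values carry the larger counting error. Values below are CPM, counts relative to library size scaled with TMM factors, given as tChIP-Seq libraries 1, 2 and 3 and then single ChIP-Seq libraries 1, 2 and 3, and log2 fold changes (log2FC) are tChIP-Seq over single ChIP-Seq. Regions were called at a Benjamini-Hochberg adjusted p under 0.01 in the quasi-likelihood test of edgeR. The study describes the experiments of a group as independent. The p-values and SEs rest on a variance that edgeR estimates with information shared across regions. They can understate the spread of a region's own libraries, as at Sfi1 (501, 432 and 544 CPM in tChIP-Seq, SE of log2FC 0.06).

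To show what was gained and lost, the 200 bases before the most upstream annotated TSS inside the region are given for the 3 strongest gains and the 3 strongest losses among called promoters of a single protein-coding gene with at least 100 counts over the 6 libraries (NCBIM37, which is mm9; 5′ to 3′ on the gene's strand; capitals mark CpG dinucleotides). Gained were Nfe2 (chr15:103085871-103086070, minus strand), Ihh (chr1:74998247-74998446, minus strand) and Dmrt3 (chr19:25684827-25685026, plus strand). Lost were Arpp19 (chr9:74899584-74899783, plus strand), Snap25 (chr2:136538989-136539188, plus strand) and Gas7 (chr11:67409866-67410065, plus strand).
Nfe2: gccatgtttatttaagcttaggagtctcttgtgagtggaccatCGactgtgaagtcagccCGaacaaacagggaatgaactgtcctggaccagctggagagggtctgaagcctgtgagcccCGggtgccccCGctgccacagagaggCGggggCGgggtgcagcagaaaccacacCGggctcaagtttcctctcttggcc
Ihh: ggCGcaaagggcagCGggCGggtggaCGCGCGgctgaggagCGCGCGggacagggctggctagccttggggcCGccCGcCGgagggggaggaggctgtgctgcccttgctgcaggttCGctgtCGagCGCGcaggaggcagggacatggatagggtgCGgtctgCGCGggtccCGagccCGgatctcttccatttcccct
Dmrt3: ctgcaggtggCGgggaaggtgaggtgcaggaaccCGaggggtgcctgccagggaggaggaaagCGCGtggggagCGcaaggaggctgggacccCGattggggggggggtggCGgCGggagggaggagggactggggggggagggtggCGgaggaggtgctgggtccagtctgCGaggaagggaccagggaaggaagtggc
Arpp19: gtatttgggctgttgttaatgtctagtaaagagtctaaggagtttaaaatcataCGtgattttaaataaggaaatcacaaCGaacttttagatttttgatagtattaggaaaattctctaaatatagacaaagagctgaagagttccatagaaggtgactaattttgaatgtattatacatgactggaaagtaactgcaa
Snap25: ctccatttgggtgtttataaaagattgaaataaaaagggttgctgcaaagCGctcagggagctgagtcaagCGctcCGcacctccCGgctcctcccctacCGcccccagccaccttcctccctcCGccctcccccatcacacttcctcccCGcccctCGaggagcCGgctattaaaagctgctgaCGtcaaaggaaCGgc
Gas7: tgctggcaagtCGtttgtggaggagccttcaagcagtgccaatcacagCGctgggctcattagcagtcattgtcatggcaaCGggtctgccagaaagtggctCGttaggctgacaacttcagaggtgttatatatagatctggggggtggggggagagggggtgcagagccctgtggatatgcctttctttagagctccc
The Ihh and Dmrt3 windows held 21 and 10 CpGs and were 72.5% and 72.0% G or C, and the Nfe2 window held 7 CpGs at 59.0%. The Snap25 window held 11 CpGs at 59.0%, the Gas7 window 4 at 54.5% and the Arpp19 window 2 at 30%. These 6 windows are not typical of their classes. Over all 10698 promoters of this kind the median window held 13 CpGs, against 11 for the 2284 promoters called higher and 15 for the 2992 called lower, and at least 10 CpGs were present in 59.9% of the higher and 71.0% of the lower promoters (65.6% of all).

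The FLAG step gave more H3K4me3 signal at 4439 regions (24.7% of the regions tested) and less at 4046 (22.5%), 8485 in all (47.2%). The changes were not symmetric: the 5th percentile of log2FC lay at -0.57 and the 95th at 1.44, around a median of 0.00. Of the regions called, 1998 were higher by at least 1 on the log2 scale (11.1% of all regions), while 108 were lower by that much (0.6%). The 3 tChIP-Seq libraries all lay above the 3 single ChIP-Seq libraries in 5538 regions (30.8%) and all below in 5576 (31.0%). The split depended on the scaling: library totals alone gave 5298 higher and 2522 lower, and offsets fitted along the level gave 2979 and 2697. When the 40% of regions with the lowest counts were left out before scaling, 1896 were higher and 1769 lower, where the fit on all regions had called 1096 and 3854 of the same 10796 regions.

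Gains and losses lay at opposite ends of the range of levels. When regions were divided by their summed count in the Camk2a single ChIP-Seq libraries, which entered no fit of the Rosa comparison, 45.9% of the lowest quintile were called higher and 0.36% lower. In the highest quintile 2.72% were called higher and 62.9% lower, and the median log2FC went from 0.88 to -0.25. Regions called higher had a median width of 1166 bp, and those called lower 2799 bp. With offsets along the level, whose construction removes such a trend, the quintile medians lay between -0.03 and 0.05, so the direction of a weak or strong region as a class rests on the use of a single scaling factor per library.

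**Figure D1:**
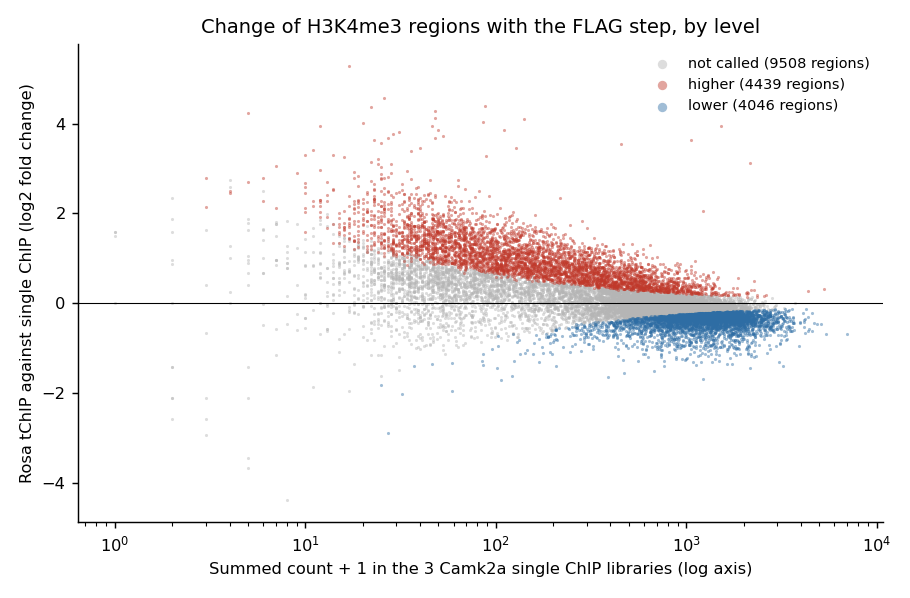
Log2 fold change of each of the 17993 regions in Rosa tChIP-Seq over single ChIP-Seq against the summed count in the Camk2a single ChIP-Seq libraries (log axis), coloured by call. The 4439 regions called higher lie mainly at low and middle counts, and the 4046 called lower at high counts.

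Position followed the level. Of the 11945 regions at TSSs of protein-coding genes alone, 20.1% were higher and 28.6% lower, whereas 40.6% of the 2074 regions inside a gene but at no TSS and 35.1% of the 2490 intergenic regions were higher. The median log2FC of the regions inside genes was 0.64 and that of the intergenic regions 0.50, and with offsets along the level these became -0.03 and -0.10, so the direction of both classes turned. At the lowest level, regions at a TSS were called higher in 64.2% of cases and regions at no TSS in 40.3%. Regions that overlapped a TSS took 92.39% ± 0.07 (SD, n = 3) of the counts in tChIP-Seq and 93.98% ± 0.02 (SD, n = 3) in single ChIP-Seq. The difference of -1.58 percentage points gave p = 0.1 in a two-sided exact permutation test, the smallest p that 3 against 3 libraries allow.

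The change also went with the base composition of a region. In the quintile with the lowest GC content 11.0% of regions were higher, and in the quintile with the highest 52.5%, with median log2FC of -0.10 and 0.48. The contrast held with offsets along the level (-0.25 and 0.28) and inside each quintile of level: at the lowest level 19.0% of the GC-poorest and 76.5% of the GC-richest regions were higher, and at the highest level 82.7% and 49.8% were lower. It was also seen in the Camk2a line, where the medians were -0.12 and 0.30. In the fixed windows of 200 bases described above, the median GC content was 62.0% for higher, 63.5% for lower and 61.5% for all promoters. The part of base composition, width or gene content in the contrast was not tested.

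**Figure D2:**
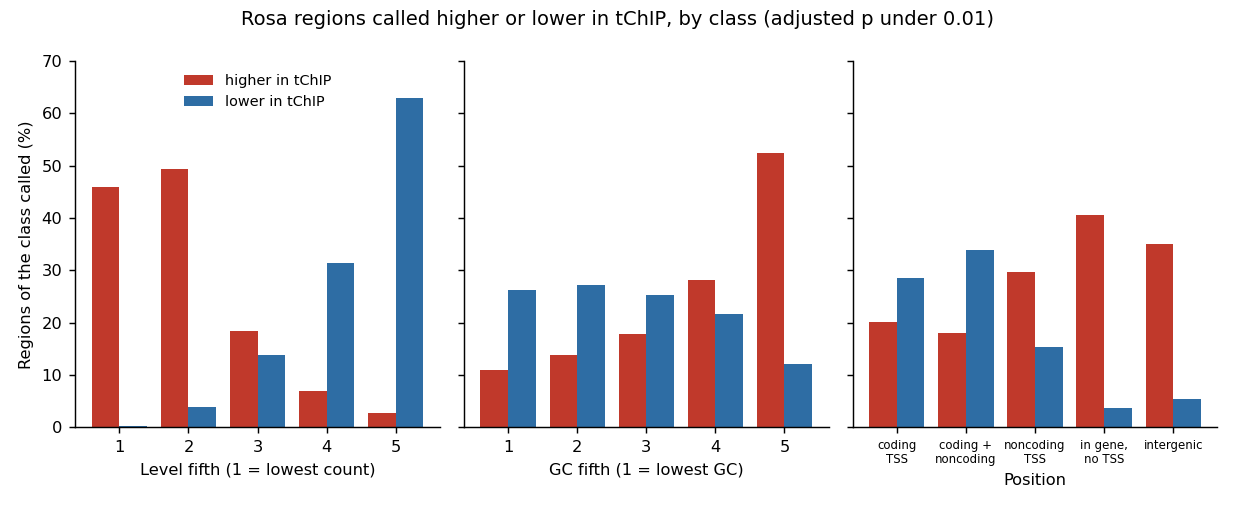
Share of Rosa regions called higher (red) or lower (blue) in tChIP-Seq, in percent of the regions of each class, by quintile of level, quintile of GC content and position. Calls go from mainly higher to mainly lower with the level, and the share called higher rises from 11.0% to 52.5% with GC content.

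Long genes were called lower more often than regions as a whole, and regions on the X chromosome were called higher less often. Promoter regions of genes over 300 kb were lower in 305 of 662 cases (46.1%) and higher in 17.4%, with a median log2FC of -0.20, or -0.14 with offsets along the level. The same class had a median of 0.18 in the Camk2a line. Of the 589 regions on the X chromosome 9.51% were higher, against 25.2% on the autosomes, while 23.1% and 22.5% were lower, and the medians were -0.16 and 0.00. With offsets along the level the X median was -0.37.

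Genes of neurons lost H3K4me3 signal with the FLAG step. All 18 pan-neuronal markers with a region were called lower, with a median log2FC of -0.71 (-0.55 with offsets along the level). Of all regions 22.5% were lower, of the highest quintile of level 62.9% and of the widest quintile 57.2%. The list was not matched for level or width. Snap25 encodes a SNARE protein of synaptic vesicle fusion. Its promoter region (chr2:136539161-136545232) had 66.5, 66.2 and 62.3 CPM in tChIP-Seq against 177, 174 and 176 CPM in single ChIP-Seq. Its log2FC was -1.43 ± 0.07 (SE; adjusted p = 1.08e-80). Syt1, the calcium sensor of vesicle release, changed by -1.20 and Dcx, a microtubule-binding protein, by -1.18. The summed level of the list was 1170 to 1232 CPM in tChIP-Seq against 2060 to 2079 CPM in single ChIP-Seq.

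Markers of excitatory neurons followed: 13 of 16 were lower (81.2%, against 22.5% of all regions) and 1 was higher, with a median of -0.70. Slc17a7, the vesicular glutamate transporter of cortical excitatory neurons, had 40.7, 40.3 and 39.7 CPM in tChIP-Seq against 97.5, 98.1 and 103 CPM in single ChIP-Seq (log2FC -1.30 ± 0.10, adjusted p = 3.59e-40). Nrgn, a postsynaptic calmodulin-binding protein, fell by 1.10 on the log2 scale and the transcription factor Neurod2 by 0.96. In none of these 3 genes did the groups overlap. Rorb, a layer marker, was the member called higher, at 0.22 ± 0.07, and its call was lost in 5 alternatives: the DESeq2 Wald test, thinned counts, and without tChIP-Seq library 1 (0.23, adjusted p = 0.0162), tChIP-Seq library 2 (0.17, adjusted p = 0.068) or single ChIP-Seq library 3 (0.20, adjusted p = 0.013).

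Of 13 inhibitory neuron markers with a region 4 were higher (30.8%, against 24.7% of all regions), 1 was lower and 8 were not called. The difference from the other neuronal lists was not tested, and the median of 0.17 became -0.08 with offsets along the level. Lhx6, a transcription factor of interneurons from the medial ganglionic eminence, had 37.0, 35.5 and 33.8 CPM in tChIP-Seq against 18.5, 16.0 and 17.4 CPM in single ChIP-Seq. Every tChIP-Seq value was above every single ChIP-Seq value (log2FC 1.05 ± 0.14, adjusted p = 1.62e-12). Pvalb, a calcium-binding protein of fast-spiking interneurons, was higher by 1.85 and Reln, a secreted matrix protein, by 0.63. Cck, a neuropeptide gene also used by excitatory cells, was the member called lower, at -1.12. Gad1 and Gad2, which make GABA, had log2FC of -0.10 and 0.31 and were not called.

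Astrocyte markers moved the other way from the neuronal lists. Of 16 with a region 13 were higher (81.2%, against 24.7% of all regions) and 2 lower (12.5%, against 22.5%). The median was 0.63 (0.48 with offsets along the level). Fgfr3, a receptor tyrosine kinase of astrocytes in the adult brain, was higher by 0.91 ± 0.07 (SE; adjusted p = 7.35e-36). Gli3, a transcription factor of hedgehog signalling, had 98.7, 102 and 96.0 CPM in tChIP-Seq against 51.3, 52.5 and 57.4 CPM in single ChIP-Seq, so that the groups were well separated (log2FC 0.89 ± 0.08). Aqp4, the water channel of astrocyte endfeet, was higher by 0.78 ± 0.18, and by 0.28 with offsets along the level, where it was no longer called (adjusted p = 0.173). Slc1a2, the main glial glutamate transporter, fell by 0.49, with 115 to 133 CPM against 171 to 180 CPM.

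The oligodendrocyte list gave 5 lower (35.7%, against 22.5% of all regions) and none higher of 14 in the edgeR test, with a median of -0.28. Mbp, the myelin basic protein gene, had 42.2, 40.9 and 55.0 CPM in tChIP-Seq against 80.8, 92.8 and 89.1 CPM in single ChIP-Seq, with no overlap between the groups (log2FC -0.94 ± 0.09). Ermn, a cytoskeletal protein of myelin, changed by -0.92. Mog, a myelin surface glycoprotein, changed by -0.68 ± 0.23, and its call was lost in 6 alternatives: the DESeq2 Wald test, library totals, thinned counts, and without single ChIP-Seq library 2 (-0.58, adjusted p = 0.0323), tChIP-Seq library 2 (-0.68, adjusted p = 0.0238) or tChIP-Seq library 3 (-0.52, adjusted p = 0.0736). Markers of oligodendrocyte precursors gave 4 higher (57.1%, against 24.7% of all regions) and 1 lower (14.3%) of 7, with a median of 0.54.

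Most mural and meningeal genes gained signal. Of 11 mural and meningeal markers 9 were higher (81.8%) and none lower in the edgeR test, with a median of 1.01 (0.69 with offsets along the level). Notch3, the Notch receptor of vascular smooth muscle and pericytes, had 42.8, 31.9 and 29.1 CPM in tChIP-Seq against 11.8, 9.95 and 10.7 CPM in single ChIP-Seq. The lowest tChIP-Seq value was well above the highest single ChIP-Seq value (log2FC 1.71 ± 0.16, adjusted p = 2.11e-26). The collagen genes Col1a1 and Col1a2 had log2FC of 1.92 and 1.34 from 2.66 and 7.17 CPM in tChIP-Seq. Both calls were lost with offsets along the level, that of Col1a1 also in the DESeq2 Wald test (adjusted p = 0.0104) and without tChIP-Seq library 2 (1.13, adjusted p = 0.224) or single ChIP-Seq library 1 (1.71, adjusted p = 0.0103), and that of Col1a2 also without tChIP-Seq library 1 (1.13, adjusted p = 0.0113). Endothelial markers gave 6 higher (33.3%, against 24.7% of all regions) and none lower of 18, and 12 were not called, with a median of 0.26. Called higher were among others Abcb1a, an efflux pump of the blood-brain barrier (1.42), Cdh5, the cadherin of endothelial junctions (0.65), and the guidance receptor Robo4, which had 0.58. Robo4 lost its call with offsets along the level, with thinned counts, and without tChIP-Seq library 1 (0.56, adjusted p = 0.0119) or 3 (0.52, adjusted p = 0.013). All 6 choroid plexus and ependymal markers were higher, with a median of 0.99, or 0.35 with offsets along the level.

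Other cell types could hardly be read. Of the 20 microglial markers 4 had a region and 1 of these was higher, and the median of -0.09 changed sign between alternatives (-0.49 to 0.35). None of the 14 blood cell markers had a region. Of 15 germ cell and pluripotency markers 3 had a region, none of them called, with log2FC from -0.21 to 0.19. In these and the following lists, a direction given with no call in edgeR also had 0 calls in the DESeq2 Wald test, and 0 members at an unadjusted p under 0.05 except for 1 microglial and 1 endothelial marker that were lower and 1 oxidative phosphorylation gene that was higher.

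**Figure D3:**
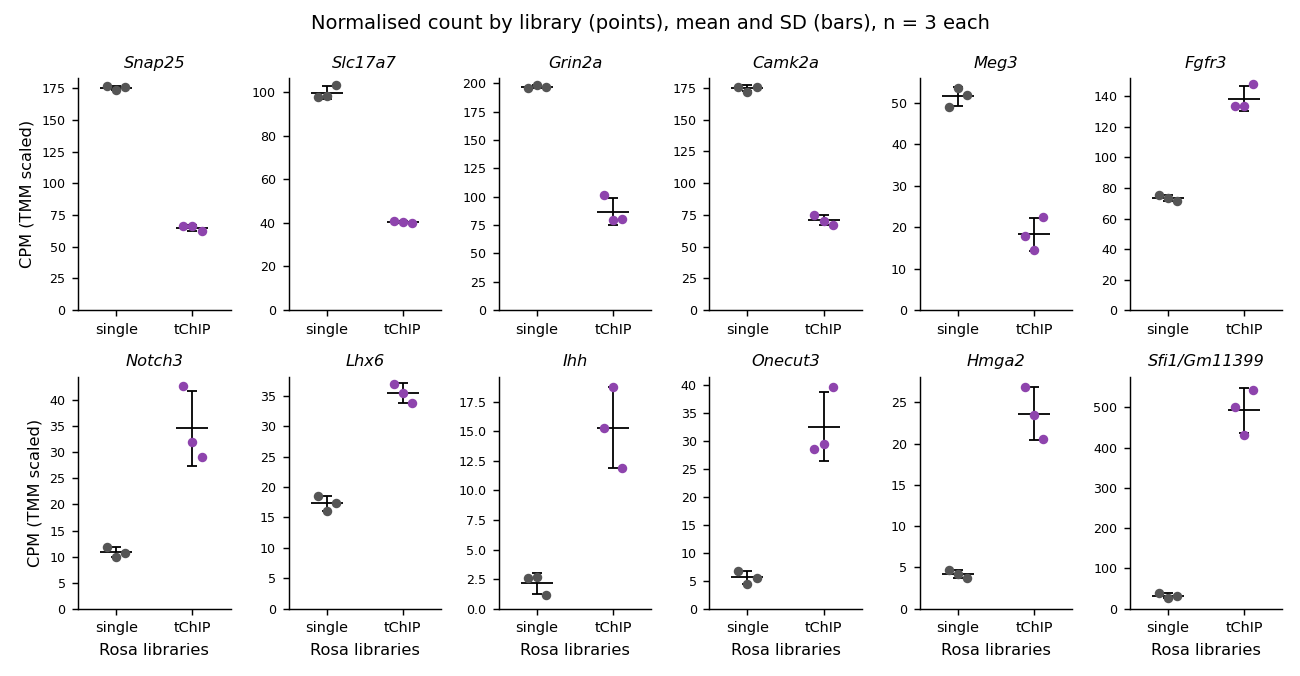
CPM in each Rosa single ChIP-Seq and tChIP-Seq library (points, n = 3 each) with mean and SD for 12 promoter regions, each on its own axis from 0. Snap25, Slc17a7, Grin2a, Camk2a and Meg3 are lower and the other genes higher in tChIP-Seq. The groups do not overlap in any panel, which was a condition for choosing Snap25, Ihh, Onecut3, Hmga2 and Sfi1.

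The synaptic gene families repeated the neuronal pattern. Over all regions 22.5% were lower and 24.7% higher. AMPA, NMDA, kainate and delta glutamate receptor genes gave 12 lower (70.6%) and 2 higher (11.8%) of 17, with a median of -0.57. Grin2a, an NMDA receptor subunit of mature synapses, had 101, 79.5 and 80.1 CPM in tChIP-Seq against 196, 198 and 197 CPM in single ChIP-Seq, so all 3 tChIP-Seq values were far below (log2FC -1.17 ± 0.07, adjusted p = 5.77e-67). Grin1, the obligatory NMDA receptor subunit, changed by -1.23 and the AMPA receptor gene Gria4 by -0.98. Grin2c, an NMDA receptor subunit that is also transcribed in astrocytes, was higher by 0.86, with 47.7 to 54.4 CPM against 27.1 to 28.0 CPM. GABA-A receptor subunits gave 10 lower (71.4%) and 3 higher (21.4%) of 14 (median -0.38). Metabotropic glutamate receptors gave 4 lower (57.1%) and 1 higher (14.3%) of 7 (median -0.21).

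Genes of the presynaptic release machinery gave 26 lower (66.7%, against 22.5% of all regions) and 3 higher (7.69%, against 24.7%) of 39. Their median was -0.44, led again by Snap25 and Syt1. Postsynaptic density scaffolds gave 27 lower (84.4%) and 2 higher (6.25%) of 32, with a median of -0.48. Among them the scaffold genes Cnksr2 and Dlg2 changed by -1.01 and -0.94, and Begain, which binds PSD-95, was higher by 0.78. Ankyrins, contactins and long adhesion genes gave 34 lower (91.9%) and 1 higher (2.7%) of 37, with a median of -0.65. In that list Ank3, the ankyrin of the axon initial segment, had 45.4, 45.8 and 43.0 CPM in tChIP-Seq against 101, 108 and 91.7 CPM in single ChIP-Seq, and Gpm6a, a neuronal membrane glycoprotein, changed by -1.22. Potassium channel genes gave 33 lower (49.3%) and 10 higher (14.9%) of 67 (median -0.25), with Kcnv1, a modifier subunit, at -1.34. Sodium and calcium channel genes gave 17 lower (63.0%) and 3 higher (11.1%) of 27 (median -0.38).

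Immediate early genes did not move as a group: 13 were lower and 6 higher of 26, and the median of -0.16 became 0.06 with offsets along the level. Npas4, an activity-induced transcription factor of neurons, had 60.7, 59.6 and 64.9 CPM in tChIP-Seq against 132, 113 and 121 CPM in single ChIP-Seq, far below in all 3 libraries (log2FC -0.98 ± 0.08). Arc, which acts at synapses, and Homer1 changed by -0.80 and -0.70. Atf3, a stress-induced transcription factor used by many cell types, was higher by 0.86.

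Promoters of developmental transcription factors gained signal. Of 53 homeobox genes outside the Hox clusters 34 were higher (64.2%) and 3 lower (5.66%). Their median was 0.87 (0.82 with offsets along the level, 0.28 to 1.02 over all alternatives). Over all regions 24.7% were higher and 22.5% lower, and in the lowest quintile of level 64.2% of regions at a TSS were higher. The lists were not matched for level, so their counts alone do not set them apart from weak promoters. Vax2, Pax2 and Onecut3, regulators of eye, kidney and neural development, led the list at 3.09, 2.72 and 2.53. Onecut3 had 28.5, 29.5 and 39.7 CPM in tChIP-Seq against 6.83, 4.44 and 5.58 CPM in single ChIP-Seq. The single ChIP-Seq signal was low but present in each library, and the gain had an adjusted p of 1.85e-42. Emx1, which is expressed in cortical excitatory cells, was lower, at -0.65 ± 0.07. Forkhead, T-box and Gata factors gave 20 higher (60.6%) and 5 lower (15.2%) of 33, with a median of 0.56. Foxi3 (2.89), Eomes (2.42) and T (2.1), regulators of early development, led this list from 5.40 to 15.4 CPM in tChIP-Seq. Foxp1, a factor of cortical projection neurons, was lower at -0.26, and was no longer called under 4 alternatives. The 3 Hox genes with a region, of 39, were all higher, with log2FC from 0.83 to 1.62.

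Among promoters with at least 100 counts over the 6 libraries, a minimum that Vax2, Pax2 and Foxi3 did not reach, the strongest gains beside Onecut3 and Sfi1 were those of Nfe2, a factor of blood cell differentiation, of Ihh, a hedgehog ligand, of the transcription factors Dmrt3, Barhl2 and Lhx1, and of Hmga2, a chromatin protein of fetal tissue. Ihh had 15.3, 18.7 and 11.9 CPM in tChIP-Seq against 2.62, 2.64 and 1.15 CPM in single ChIP-Seq (log2FC 2.79 ± 0.27, adjusted p = 6.86e-24). Nfe2 had 14.3, 16.3 and 8.61 CPM in tChIP-Seq against 1.31, 1.80 and 1.97 CPM (log2FC 2.95 ± 0.29). In both, the lowest tChIP-Seq value was over every single ChIP-Seq value. Such separation was a condition for naming the strongest gains and losses, so it adds no support. The CpG-rich window of Ihh is printed above. Dmrt3, Hmga2, Barhl2 and Lhx1 had log2FC of 2.61, 2.49, 2.47 and 2.45. These 4 regions were 693 to 1041 bp wide and 62.0% to 72.5% G or C, where the median region was 1774 bp wide and 53.8% G or C.

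The largest gain at a promoter with this minimum lay at Sfi1, which encodes a centrin-binding protein, and the noncoding Gm11399 (chr11:3041347-3047409). It had 501, 432 and 544 CPM in tChIP-Seq against 38.8, 26.6 and 32.0 CPM in single ChIP-Seq (log2FC 3.93 ± 0.06). Unlike the developmental promoters it was 6063 bp wide and 48.3% G or C, and its single ChIP-Seq level differed between the lines, 32.5 CPM in Rosa and 123 CPM in Camk2a. No copy of at least 95% identity over at least 50% of the region was found elsewhere in the assembly. This search cannot see copies that the assembly lacks, and repeat content was not calculated. Regions at no TSS gave gains of similar size: 4.38 at chr13:3372214-3372656, 4.1 at chr10:21862132-21862909, 3.63 at chr15:74915917-74917521 and 3.45 at chrX:109484254-109484899, which lies inside Apool and has 1 near-identical copy. The region on chromosome 15 had 224, 192 and 227 CPM in tChIP-Seq against 21.9, 14.9 and 15.4 CPM in single ChIP-Seq. At each of these 5 loci the Camk2a single ChIP-Seq level was higher than in Rosa, for example 85.6 against 17.4 CPM on chromosome 15, and the part of this in the gain was not tested.

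Collagen and laminin genes gave 27 higher (75.0%, against 24.7% of all regions) and 4 lower (11.1%, against 22.5%) of 36. These 36 members lay in 34 regions, and a shared region counts for each of its genes. The median was 0.85 (0.45 with offsets along the level). Col4a3, a basement membrane collagen, had 8.98, 11.4 and 14.6 CPM in tChIP-Seq against 2.18, 2.28 and 1.80 CPM in single ChIP-Seq, all 3 libraries above (log2FC 2.42 ± 0.29). Col19a1, a collagen that neurons also transcribe, was lower at -0.47, and was not called after the filter that removes 40% of the regions, with thinned counts, or without tChIP-Seq library 1 (-0.35, adjusted p = 0.0355). Antigen presentation and interferon genes gave 14 higher (66.7%) and none lower of 21, with a median of 0.47. Bst2, an interferon-induced membrane protein, had 35.4, 28.9 and 31.8 CPM in tChIP-Seq against 13.5, 15.2 and 14.4 CPM in single ChIP-Seq, about 1.15 ± 0.15 higher on the log2 scale. Ifit1 was higher by 0.82, and H2-Ab1, a class II chain, had 1.14 but 0.40 with offsets along the level, where it was not called. Notch, Hes and Id genes gave 12 higher (48.0%) and 3 lower (12.0%) of 25, with a median of 0.18.

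Cell cycle genes gave 20 higher (57.1%, against 24.7% of all regions) and none lower of 35, with a median of 0.41 (0.27 with offsets along the level). Cdk1, the mitotic kinase, had 24.8, 22.9 and 28.5 CPM in tChIP-Seq against 8.14, 8.16 and 7.71 CPM in single ChIP-Seq, without overlap (log2FC 1.65 ± 0.18, adjusted p = 1.65e-18). Aurkb, another mitotic kinase, was higher by 1.34, and the cyclin gene Ccnb2 had 1.70, a call that was lost with offsets along the level (adjusted p = 0.0132).

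Housekeeping genes, whose promoters are used by all cells, were more often called lower than higher. Over all regions 22.5% were lower and 24.7% higher, and in the highest quintile of level 62.9% were lower. Mitochondrial ribosomal protein genes (15.8% lower) and tRNA synthetase genes (11.4% lower), described further below, lay under the share of all regions. Of 79 cytosolic ribosomal protein genes 34 were lower (43.0%) and none higher in the edgeR test, with a median of -0.22 and a range from -0.46 to 0.15. Rpl34, Rps18 and Rpl28, subunits of the ribosome, had the lowest values, from -0.46 to -0.45, and the call of Rps18 was lost without the 40% of regions with the lowest counts and without tChIP-Seq library 1 (-0.41, adjusted p = 0.0122). Nuclear genes of oxidative phosphorylation gave 34 lower (43.6%) and none higher of 78, with a median of -0.23. Among them Ndufb4 of complex I had 33.3, 36.7 and 38.4 CPM in tChIP-Seq against 50.3, 55.7 and 55.8 CPM in single ChIP-Seq, and Atp5g3 and Cox7c changed by -0.46. With offsets along the level the medians of these lists were -0.11 and -0.09. Proteasome subunits gave 14 lower and 2 higher of 37 (median -0.21), and heat shock and chaperone genes 11 and 2 of 22 (median -0.20, or -0.01 with offsets along the level). The members called higher were Psmb8 (0.79) and Psmb9 (0.63), subunits of the immunoproteasome that the interferon list also holds, and the small heat shock protein gene Hspb8 (0.76) and the co-chaperone gene Bag3 (0.61), all 4 picked out after their values were seen.

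The strongest loss at a promoter with at least 100 counts lay at Arpp19. This gene, which encodes an inhibitor of protein phosphatase 2A, had 28.0, 25.3 and 25.8 CPM in tChIP-Seq against 85.9, 84.7 and 83.2 CPM in single ChIP-Seq (log2FC -1.68 ± 0.11, adjusted p = 1.01e-48). Gas7, Arpp21, Snhg11, Kalrn and Kcnv1 changed by -1.40, -1.39, -1.36, -1.35 and -1.34. Arpp21 is a phosphoprotein of forebrain neurons, and Kalrn encodes a signalling protein of dendritic spines. Ccl27a, a chemokine gene at -1.34, had 1.06 to 2.65 CPM against 3.84 to 5.41 CPM in a region with 11 near-identical copies, and its call was lost in 6 alternatives: the DESeq2 Wald test, library totals, thinned counts, and without single ChIP-Seq library 3 (-1.23, adjusted p = 0.0179), tChIP-Seq library 1 (-1.04, adjusted p = 0.075) or tChIP-Seq library 2 (-1.36, adjusted p = 0.0206). Losses at no TSS were of similar size: -1.94 at chr17:6489244-6489523, which has 2 near-identical copies and 0.00 to 2.65 CPM in tChIP-Seq, -1.70 at chr4:48696170-48696652, -1.64 at chr7:68758142-68760295 and -1.60 at chr12:41520750-41521973 inside Dock4. The first of these lost its call when the single ChIP-Seq counts were thinned to the tChIP-Seq totals and without tChIP-Seq library 2 (-1.38, adjusted p = 0.0102).

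Long noncoding RNA genes of the nucleus gave 9 lower (69.2%, against 22.5% of all regions) and 1 higher (7.69%, against 24.7%) of 13, with a median of -0.38. Meg3, an imprinted RNA of neurons, had 18.0, 14.5 and 22.5 CPM in tChIP-Seq against 49.0, 53.7 and 52.0 CPM in single ChIP-Seq, with every tChIP-Seq library far below (log2FC -1.51 ± 0.14, adjusted p = 1.15e-25). Malat1, which is transcribed in all cell types, changed by -0.68, from 590 to 368 CPM. Airn, the imprinted antisense RNA of Igf2r, was higher by 0.81.

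The loci that touch the transgenes of either line were also read. Gt(ROSA)26Sor, which holds the knock-in, had 225, 184 and 209 CPM in tChIP-Seq against 254, 259 and 255 CPM in single ChIP-Seq. It was lower by -0.31 ± 0.05 with a single factor per library and stood at 0.00 with offsets along the level. Camk2a, the kinase gene of excitatory neurons, had 75.0, 70.4 and 66.9 CPM in tChIP-Seq against 176, 172 and 176 CPM in single ChIP-Seq (log2FC -1.29 ± 0.07). Its promoter drives Cre in the Camk2a line and no transgene in these Rosa mice. Ddx4 (Vasa), whose promoter drives Cre in the germline, and the H2B gene Hist1h2bj had no region.

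**Figure D4:**
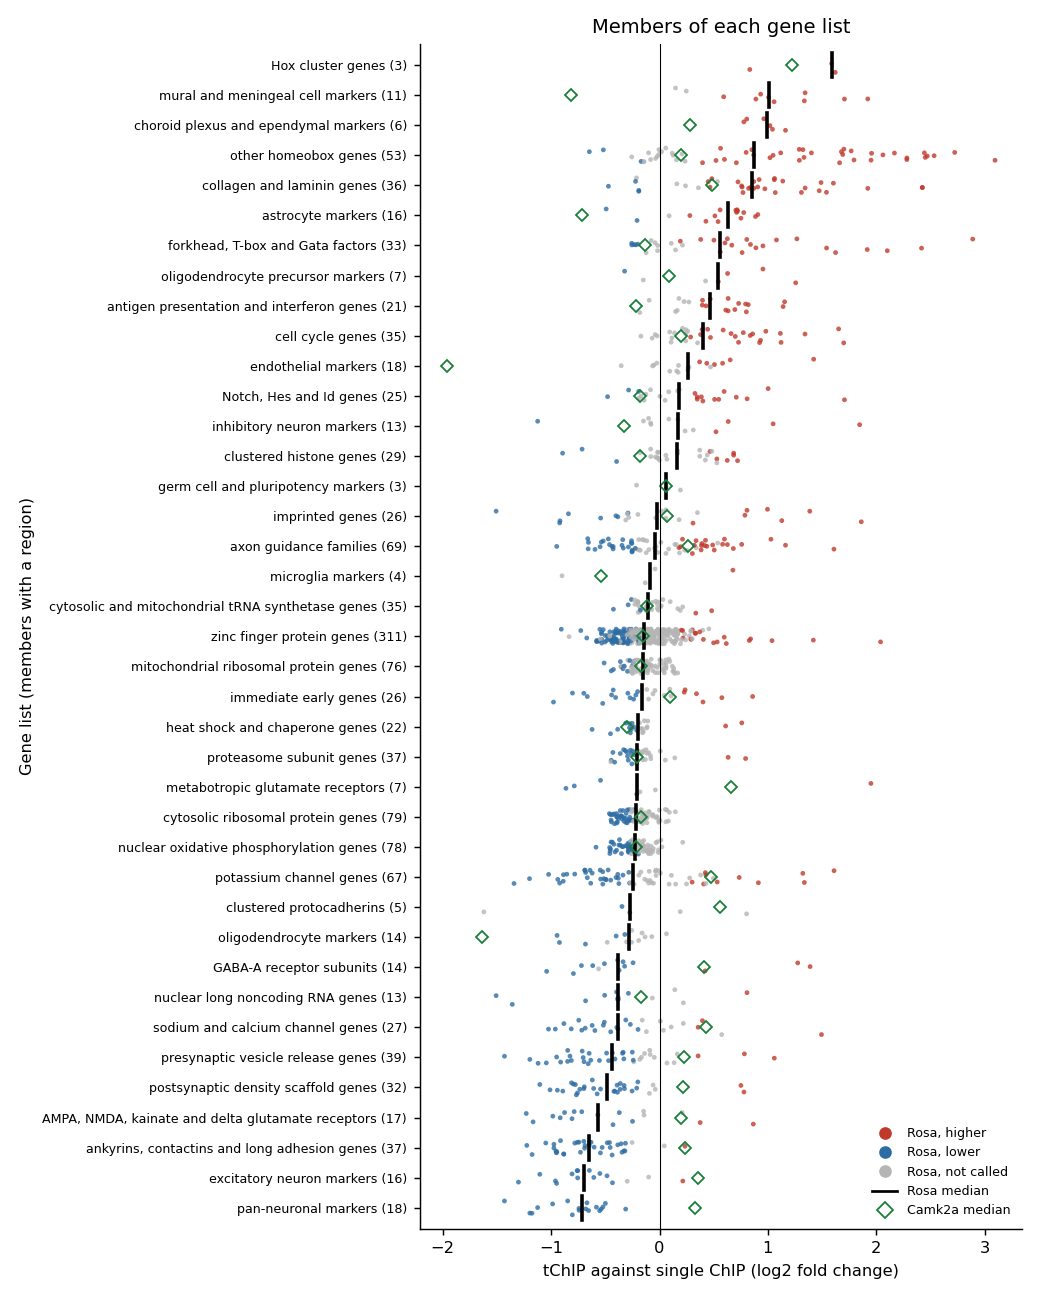
Log2 fold change in Rosa of the members with a region (points, coloured by call) of gene lists with at least 3 such members, with the list's median in Rosa (black bar) and in the Camk2a line (green diamond). Pan-neuronal, excitatory neuron and adhesion gene lists lie lowest with medians of -0.71, -0.70 and -0.65, and Hox, mural, choroid plexus, homeobox, collagen and astrocyte lists highest.

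The same contrast in the Camk2a line shares no library with the Rosa comparison. It gave 4559 regions higher (25.3%) and 4058 lower (22.6%), 8617 in all (47.9%). Of these 1831 were higher and 1732 lower in both lines, 664 were higher in Rosa and lower in Camk2a, and 853 were lower in Rosa and higher in Camk2a. The difference between the lines was tested by the interaction term over 12 libraries, the Rosa log2FC minus the Camk2a log2FC, which was positive in 2375 regions (13.2%) and negative in 2466 (13.7%). The lines also differ in tamoxifen treatment and in the share of cells with the tag, which cannot be told apart here.

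For neuronal genes the lines went in opposite directions. The interaction was negative for all 18 pan-neuronal markers, whose median was -0.71 in Rosa and 0.33 in Camk2a, and for 14 of 16 excitatory markers (-0.70 and 0.35). For Slc17a7 it was -1.67 ± 0.11 (SE), and the Camk2a line alone had a log2FC of 0.36. For the gene Camk2a itself it was -1.74 ± 0.08. The single ChIP-Seq level of this gene also differed, with 174 CPM in the Rosa line and 248 CPM in the Camk2a line. The part of this in the interaction was not tested. Adhesion genes gave 35 negative values of 37, postsynaptic scaffolds 25 of 32, potassium channels 49 of 67 and presynaptic genes 29 of 39.

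Astrocyte and vascular genes gave the reverse. The interaction was positive for 14 of 16 astrocyte markers, with medians of 0.63 in Rosa and -0.72 in Camk2a, for 16 of 18 endothelial markers (0.26 and -1.96) and for 8 of 11 mural and meningeal markers (1.01 and -0.81). Cdh5 had 35.0 CPM in Rosa tChIP-Seq and 4.18 CPM in Camk2a tChIP-Seq, from 22.1 and 23.7 CPM in single ChIP-Seq (interaction 3.13 ± 0.25). Oligodendrocyte markers, lower in both lines by their medians (-0.28 and -1.64), had a positive interaction in 11 of 14. Markers of oligodendrocyte precursors had 3 positive and 1 negative of 7. None of the 4 microglial markers was called in the edgeR interaction test (1 had an unadjusted p under 0.05, and the DESeq2 Wald test called 0). Inhibitory neuron markers had a positive interaction in 9 of 13 and a negative one in 1, Cck.

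Few interactions were called among ribosomal protein and oxidative phosphorylation genes. None of the 79 ribosomal protein genes was called in the edgeR interaction test (9 had an unadjusted p under 0.05, and the DESeq2 Wald test called 0), with medians of -0.22 in Rosa and -0.17 in Camk2a, while 2 of 78 oxidative phosphorylation genes were called (-0.23 and -0.22). Among the developmental promoters the lines gave similar gains at Onecut3 (2.53 in Rosa and 2.12 in Camk2a), Ihh (2.79 and 2.53), Pax2 (2.72 and 2.53) and Foxi3 (2.89 and 2.86), and for none of these 4 was the interaction called. At Dmrt3, Vax2, Lhx1 and Eomes the gain was larger in Rosa, by 1.74, 2.09, 1.83 and 1.34 on the log2 scale. Of the 53 homeobox genes 27 had a positive and 6 a negative interaction, with medians of 0.87 and 0.20. Forkhead, T-box and Gata factors had 17 positive and 2 negative of 33 (medians 0.56 and -0.14), and antigen presentation and interferon genes 14 positive of 21 (0.47 and -0.21).

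**Figure D5:**
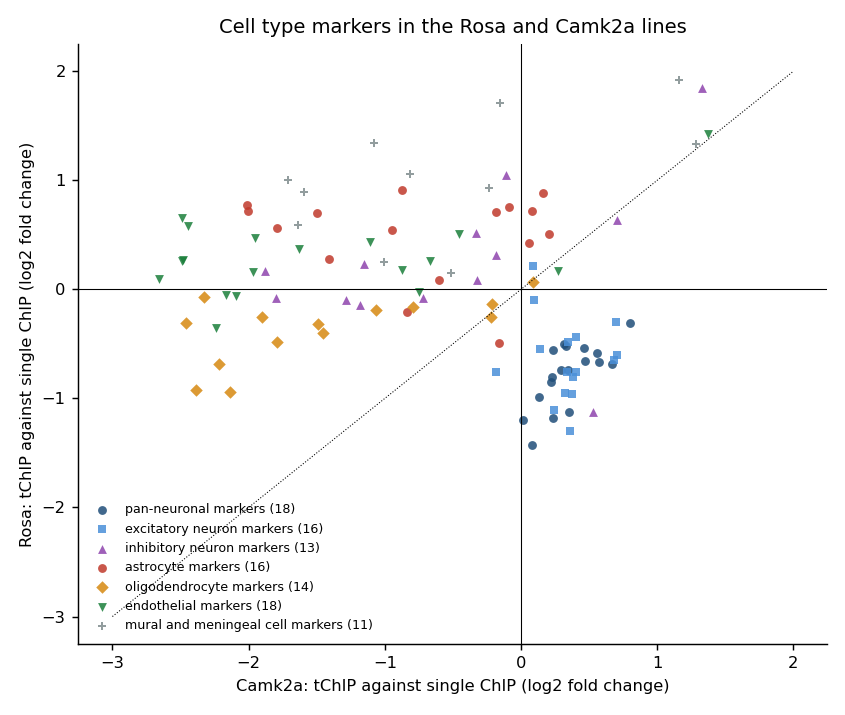
Log2 fold change of cell type markers in Rosa (vertical axis) against the same in the Camk2a line (horizontal axis), with a dotted line where both are equal. Pan-neuronal and excitatory markers lie below 0 in Rosa, except Rorb at 0.22, and mostly above 0 in Camk2a, and astrocyte, endothelial and mural markers mostly above the dotted line.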

How the data were processed

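H3K4me3 ChIP-Seq counts of 6 Rosa H2B-FLAG libraries (3 tChIP-Seq, 3 single ChIP-Seq) were analysed, with 6 Camk2a H2B-FLAG libraries for comparison. Before deposit, the authors trimmed the reads (FASTX Toolkit), set aside those from repeats (Bowtie2), aligned the others to mm9 (Bowtie), dropped duplicates (samtools), defined peaks (MACS) and counted (bedtools). Versions in the submitters' processing notes are Bowtie2 2.1.0, Bowtie 1.0.0, SAMtools 0.1.19 and bedtools 2.17.0. The deposited counts are whole numbers per region without normalization, over a single list of 17993 regions, and how the peak calls were merged into it is not given in the sources used here. Repeat removal and duplicate removal lower the values of repetitive and of very dense regions.

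Counts were fitted with glmQLFit and glmQLFTest of edgeR 4.0.16 (R 4.3.3) on the 6 Rosa libraries, with TMM factors, no filter on low counts, no covariate and Benjamini-Hochberg adjustment over all regions. The threshold of 0.01 is that of the study's own test. SEs were calculated as the size of log2FC over the square root of F. The interaction was fitted on 12 libraries. In simulated data of the Rosa comparison with 17993 regions, 92% of 100 regions with a log2FC of 1 were recovered. Of 100 with a log2FC of 0.5, 66% were recovered, and 3 unchanged regions were called. Few simulated regions thus differed, whereas 47.2% of the real regions were called, so the simulation does not test the dependence on the scaling. Recovery at low counts was not assessed separately.

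TSSs were taken from GENCODE M1. A gene was represented by its TSS region with the largest count. Genes that shared such a region were each counted, so a list can hold fewer regions than members. Named were the 8 called promoter regions with the largest and the 8 with the smallest log2FC among those with at least 100 counts and groups apart, 4 and 4 at no TSS, the 3 strongest members and 1 in the other direction of the lists described in detail, and the transgene loci, Sfi1, Ank3 and Gpm6a. The comparison, its 43 gene lists and its tests were chosen with earlier results of these data known. Near-identical copies were searched with minimap2 2.31. Alternatives were DESeq2 1.42.0 size factors and Wald test, library totals, loess offsets along the level (span 0.3), filters on low counts, other thresholds, all 12 libraries in the fit, thinned counts, a replicate block, and omission of single libraries or of regions with copies. The repeat content of regions was not calculated, since the genome used here is not masked.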

Additional observations from a re-analysis of the deposited data

Results flagged for a closer look

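The effect of the FLAG step differed between the Rosa and Camk2a lines, by the interaction term of the edgeR fit over 12 libraries (adjusted p under 0.01), at 63 of the 86 named regions, 29 with a more positive and 34 with a more negative log2FC in Rosa. Over all regions 26.9% were called, and since most of the named regions were chosen for a large Rosa log2FC, which enters the difference, their share is a description only. Values below are the Rosa log2FC minus the Camk2a log2FC. The lines differ in which cells carry the tag and in treatment, which cannot be told apart here.

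Among genes of excitatory neurons and of neurons in general, the difference was -1.67 for Slc17a7, -1.36 for Nrgn, -1.35 for Neurod2, -1.34 for Emx1, -1.52 for Snap25, -1.22 for Syt1, -1.42 for Dcx and -1.74 for Camk2a. Among synaptic and channel genes it was -1.45 for Grin1, -1.63 for Grin2a, -1.13 for Gria4, 1.49 for Grin2c, -0.83 for Cnksr2, -1.33 for Dlg2, -0.58 for Begain and -1.62 for Kcnv1. It was -1.38 for Ank3 and -0.90 for Gpm6a. Begain thus gained more in Camk2a than in Rosa, while Grin2c gained in Rosa and had a log2FC of -0.63 in Camk2a.

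Among the other strongest losses the difference was -1.60 for Arpp19, -1.50 for Gas7, -1.28 for Arpp21, -1.22 for Snhg11 and -1.59 for Kalrn. Among immediate early genes it was -1.62 for Npas4, -0.92 for Arc, -0.45 for Homer1 and 0.56 for Atf3. Of the noncoding RNA genes Meg3 had -1.35 and Malat1 0.17.

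Among interneuron genes Lhx6 had a difference of 1.15 and Cck of -1.67. Astrocyte genes had 1.77 for Fgfr3, 0.71 for Gli3, 2.78 for Aqp4 and -0.34 for Slc1a2. Oligodendrocyte genes had 1.18 for Mbp, 1.45 for Ermn and 1.53 for Mog, all of which were lower with the FLAG step in both lines. Vascular and matrix genes had 3.13 for Cdh5, 3.02 for Robo4, 1.85 for Notch3, 2.41 for Col1a2, 1.93 for Col4a3 and -1.37 for Col19a1.

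Developmental regulators had 1.54 for Nfe2, 1.74 for Dmrt3, 1.18 for Hmga2, 1.83 for Lhx1, 2.09 for Vax2, 1.34 for Eomes and -0.30 for Foxp1. The interferon-induced genes Bst2 and Ifit1 had 1.64 and 2.48, and the mitotic kinase gene Cdk1 had 1.29.

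Sfi1 had a difference of 2.86. The regions at no TSS had 3.47 on chromosome 13, 3.45 on chromosome 10, 2.85 on chromosome 15 and 2.34 on the X chromosome among the gains. Among the losses they had -2.08 on chromosome 17, -2.08 on chromosome 4, -1.53 on chromosome 7 and -2.02 on chromosome 12. The groups of 3 libraries are too small for the test of a single sample that stands apart.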

How the results depend on the processing

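Of the 1318 values of 86 named regions under the alternatives, 1276 kept direction and call, 41 kept direction and lost the call, and 1, Gt(ROSA)26Sor, changed sign, to 0.00236 with offsets along the level (adjusted p = 0.975). The changes lay in 14 regions, each named with them above. The count of Rosa regions moved by over 1.5 times without the 40% of regions with the lowest counts (1896 higher and 1769 lower), where fewer regions were tested and the scaling was recentred. It moved likewise for lower regions with library totals alone (2522) and with offsets along the level (2697). Of these 2697 and of the 2979 higher with offsets, 1857 and 2297 were called in the same direction with TMM factors, and 14 called lower with TMM factors were called higher with offsets. In Camk2a the 40% filter gave 2567 higher and 2015 lower and the DESeq2 Wald test gave 2414 lower, and the filter left 1167 positive interactions. The cause was not tested for the Wald test. Apart from these counts and those without a library, the alternatives gave 2979 to 5318 higher and 2878 to 5093 lower Rosa regions. The difference in the share of counts at TSSs was -1.32 points with TSSs within 1000 bp and -1.66 with TSSs of protein-coding genes.

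Without each library in turn, Rosa regions numbered 3616 to 4280 higher and 3246 to 3864 lower, Camk2a regions 4025 to 4194 higher and 3421 to 3634 lower, and interactions 2110 to 2281 positive and 2162 to 2383 negative, and the share of counts at TSSs differed by -1.62 to -1.56 points. With the replicate block the Rosa comparison gave 4424 higher and 4049 lower regions. The replicate numbers were not taken as pairs, since deviations of equally numbered libraries correlated with r of 0.025, 0.006 and -0.002 over 16258 regions and not every library correlated best with its own number. Depth limits the tChIP-Seq libraries, in which 1461 to 1990 regions had under 10 counts, against 331 to 521 in single ChIP-Seq.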

Other observations

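Other gene groups had members called in both directions in Rosa, where 24.7% of all regions were higher and 22.5% lower. Of 69 axon guidance genes 22 were higher (31.9%) and 24 lower (34.8%), and the median of -0.04 became 0.05 with offsets along the level. Of 26 imprinted genes 7 were higher (26.9%) and 8 lower (30.8%), with log2FC from -1.51 (Meg3) to 1.86 and a median of -0.03 that became 0.05 with the offsets. Of 29 clustered histone genes with a region, which lay in 24 regions, 6 were higher (20.7%) and 3 lower (10.3%), with a median of 0.16. Of the 5 clustered protocadherins with a region 2 were lower, and their median of -0.27 became 0.19 when all TSS regions of a gene were averaged.

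Zinc finger protein genes formed the largest list, with 88 lower (28.3%, against 28.6% of regions at TSSs of protein-coding genes alone) and 18 higher (5.79%, against 20.1%) of 311, a median of -0.15 in both lines and 40 members with a called interaction, 21 positive and 19 negative, where 26.9% of all regions were called. Mitochondrial ribosomal protein genes gave 12 lower (15.8%) and 0 higher of 76 by edgeR (2 higher at an unadjusted p under 0.05, 0 higher by DESeq2). The tRNA synthetase genes gave 4 lower (11.4%) and 2 higher of 35, where 22.5% of all regions were lower. The medians of both these lists, -0.15 and -0.11, changed sign in at least 1 alternative. None of the 1416 olfactory and vomeronasal receptor genes had a region.

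Both regions on the mitochondrial genome were higher in Rosa tChIP-Seq by 0.32 and 0.27, although the libraries overlapped (215 to 286 against 159 to 252 CPM in the first), and had log2FC of -2.36 and -2.49 in Camk2a. The paper describes this genome as free of nucleosomes, so these counts are not read as H3K4me3. It also reports this genome as an exception between input and FLAG-purified DNA in Rosa, which is another comparison than the present one. The 3 regions on the Y chromosome, at Eif2s3y, Uty and Ddx3y, were lower, by 0.71, 0.36 and 0.41 on the log2 scale.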
